A study of Homo sapiens with 18 samples.

Results

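The aminoacyl-tRNA synthetases are the enzymes that load each tRNA with its amino acid. Their transcripts were followed in U2OS-MycER cells after silencing of RAD21, a core subunit of the cohesin ring, and after activation of Myc. The members were the 36 of 23399 genes in the table whose symbols are on a list of synthetases, 20 of which act in the cytosol and 16 in mitochondria. All 36 passed the filter on low values, a mean of at least 1 eRPKM, which left 14993 genes. U2OS is a human osteosarcoma line, and all cells carried MycER, a fusion of Myc with the hormone-binding part of the estrogen receptor that 4-hydroxytamoxifen (OHT) activates. Cells were transfected with a control siRNA (siCtrl) or with siRNA against RAD21 (siRAD21). At the same time they received ethanol or 400 nM OHT (siCtrl OHT and siRAD21 OHT), and they were collected at 24 h or 48 h. RNA without ribosomal RNA was sequenced in 3 libraries each of siCtrl 48 h and siCtrl OHT 48 h cells and 2 of each of the other 6 groups, 18 in all. Reads of the Myc part of the fusion cannot be told apart from those of endogenous MYC.

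Each synthetase recognises 1 amino acid and its tRNAs. EPRS is the exception, since a single protein charges glutamate and proline. The cytosolic and the mitochondrial pools are mostly served by separate nuclear genes, and the symbols of the mitochondrial enzymes end in 2. GARS and KARS serve both compartments, and mitochondria make glutaminyl-tRNA indirectly through EARS2 and the GatCAB amidotransferase. DARS, EPRS, IARS, KARS, LARS, MARS, QARS and RARS form the multisynthetase complex with the scaffold proteins AIMP1, AIMP2 and EEF1E1. Many cytosolic synthetases are known targets of ATF4, the transcription factor of the amino acid response, which reads the C/EBP-ATF response element. Myc with its partner Max binds E-boxes.

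Both motifs were searched in promoters of the members, because the groups differ in Myc activity and because the synthetases usually listed as ATF4 targets can be set beside the others. RefSeq promoters (GRCh38.p14, 250 bases before to 50 after the gene start) were found for 30 of the 36 members, all but DARS, LARS, VARS, YARS, AARS2 and VARS2. The core of the C/EBP-ATF element, TGATGNAA on either strand, was in 7 of these 30 promoters (23.33%). It was in 3.67% of all 27305 RefSeq promoters and in 1.73% of the 11000 promoters of genes tested. It was in 6 of the 10 promoters of cytosolic synthetases usually listed as ATF4 targets, in 0 of 6 of the other cytosolic ones and in 1 of 14 mitochondrial ones. The matches are listed here on the strand of the gene, with the motif or its reverse complement in capitals, to show that 6 of them hold the same 8 letters on one strand or the other.
AARS, chr16:70289660-70289719, minus strand: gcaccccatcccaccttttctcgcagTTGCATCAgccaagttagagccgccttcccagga
CARS, chr11:3057398-3057451, minus strand: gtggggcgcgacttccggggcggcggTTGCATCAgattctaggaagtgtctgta
IARS, chr9:92293677-92293736, minus strand: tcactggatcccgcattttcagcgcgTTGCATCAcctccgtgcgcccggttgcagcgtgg
MARS, chr12:57488038-57488093, plus strand: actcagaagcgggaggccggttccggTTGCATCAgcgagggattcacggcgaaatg
TARS, chr5:33440941-33440990, plus strand: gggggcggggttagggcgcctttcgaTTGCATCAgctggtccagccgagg
NARS, chr18:57621811-57621848, minus strand: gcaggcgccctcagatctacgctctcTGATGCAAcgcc
YARS2, chr12:32756061-32756120, minus strand: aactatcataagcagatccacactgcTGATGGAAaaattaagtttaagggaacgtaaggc

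The canonical E-box CACGTG, which reads the same on both strands, was in 4 of the 30 promoters (13.33%), in 7.43% of all RefSeq promoters and in 10.02% of those of genes tested. The 4 matches are shown with the E-box in capitals. With OHT in siRAD21 cells at 48 h, MARS2, CARS2 and IARS were called higher and EARS2 was not. There 6 of the 26 members without an E-box and 12.4% of all genes were called higher. In siCtrl cells at 48 h, OHT had 1 of the 4 and 2 of the 26 called higher, beside 7.78% of all genes. IARS alone held both motifs. A match is a run of letters and not a measured binding site.
MARS2, chr2:197705332-197705389, plus strand: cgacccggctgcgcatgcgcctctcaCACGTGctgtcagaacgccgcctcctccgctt
CARS2, chr13:110706490-110706544, minus strand: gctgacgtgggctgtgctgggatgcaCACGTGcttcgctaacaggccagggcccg
EARS2, chr16:23557334-23557391, minus strand: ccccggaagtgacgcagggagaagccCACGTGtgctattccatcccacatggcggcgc
IARS, chr9:92293852-92293909, minus strand: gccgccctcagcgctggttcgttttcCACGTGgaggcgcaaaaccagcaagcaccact

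The libraries held 9647501 to 12678599 reads, recovered from the values themselves. RAD21 was at 66.4 to 96.9 eRPKM in the 10 libraries labelled siCtrl or siCtrl OHT and at 11.1 to 18.6 eRPKM in the 8 libraries labelled siRAD21 or siRAD21 OHT, without overlap. MYC was at 29.4 to 57.5 eRPKM, with log2 fold changes at 48 h of -0.22 with OHT in siCtrl cells (not called) and of -0.72 in siRAD21 cells (called). With siRAD21 alone MYC had -0.25 at 24 h and 0.12 at 48 h (neither called). Of 7 mesenchymal markers, 6 had a median of at least 1 eRPKM, VIM ranged from 105 to 129 eRPKM, and COL1A2 reached at most 0.109 eRPKM. Of 11 markers of other cell types, EPCAM, CDH1, SYP and RBFOX3 had a median of at least 1 eRPKM. The summed level of all 11 was 26.9 to 29.3 eRPKM in siCtrl 24 h and 55.2 to 55.8 eRPKM in siRAD21 OHT 48 h libraries. The part of this in the results was not tested. The 2 siRAD21 OHT 48 h libraries differed by no more than sampling noise (a chi-square of 0.979 per gene over 11736 genes) and may be 1 library sequenced more than once. They were counted as 1 sample in means, which then have no SD, but as 2 libraries in the tests, so that errors and p-values of siRAD21 OHT 48 h may be too small. All calls on members stood when this pair was averaged into 1 library before the test. The 2 siRAD21 24 h libraries were also close to sampling noise, at 1.04 per gene over 11168 genes. The pairs of the other groups had 1.46 to 4.24. The siRAD21 24 h pair was not averaged in any alternative, and its errors and p-values may be too small as well. In bulk RNA, fewer cells of a type and less RNA per cell cannot be told apart.

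Every synthetase was expressed, and the cytosolic ones were on the whole at higher levels. The unit is eRPKM, reads scaled by exon length and by library depth, so levels can be compared between genes. VARS and VARS2 are left out of this comparison, because the exon lengths behind their values, 26707 and 37702 bases, are 4.54 and 5.83 times those of all GENCODE exons of the gene combined. For the other 34 members this ratio was 0.12 (RARS2) to 1.27 (SARS), and 0.15 for NARS2, so that levels between genes depend on the gene model used. In siCtrl 48 h cells the other 19 cytosolic enzymes ranged from 19.6 eRPKM (FARSB) to 70.8 eRPKM (TARS), with a median of 48.3 eRPKM. The other 15 mitochondrial enzymes ranged from 9.17 eRPKM (NARS2) to 46.0 eRPKM (IARS2), with a median of 17.8 eRPKM. TARS stood at 70.8 ± 2.24, QARS at 68.6 ± 1.74 and NARS at 67.7 ± 2.5 eRPKM (SD, n = 3). The ranges of these genes over libraries overlapped, though TARS was above NARS in each library, and they were not tested against each other. IARS2 stood well above the next mitochondrial enzyme, YARS2, at 28.5 ± 1.12 eRPKM (SD, n = 3). For the same amino acid, the cytosolic mRNA was 7.41 ± 0.576 times the mitochondrial one for asparagine and 3.99 ± 0.428 times for threonine in these libraries (SD, n = 3). It was 1.04 ± 0.0773 times for tryptophan and 1.11 ± 0.0301 times for tyrosine. Histidine was the one pair with the mitochondrial mRNA higher in the mean of these libraries, HARS being 0.867 ± 0.0579 times HARS2. Over all 18 libraries that ratio was 0.823 to 1.28. The ratios for isoleucine, tryptophan and tyrosine fell as low as 0.831, 0.950 and 0.803, so the order in these pairs was not fixed. HARS and HARS2 lie head to head, and reads were counted without strand, so their shared bases cannot be assigned.

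**Figure D1:**
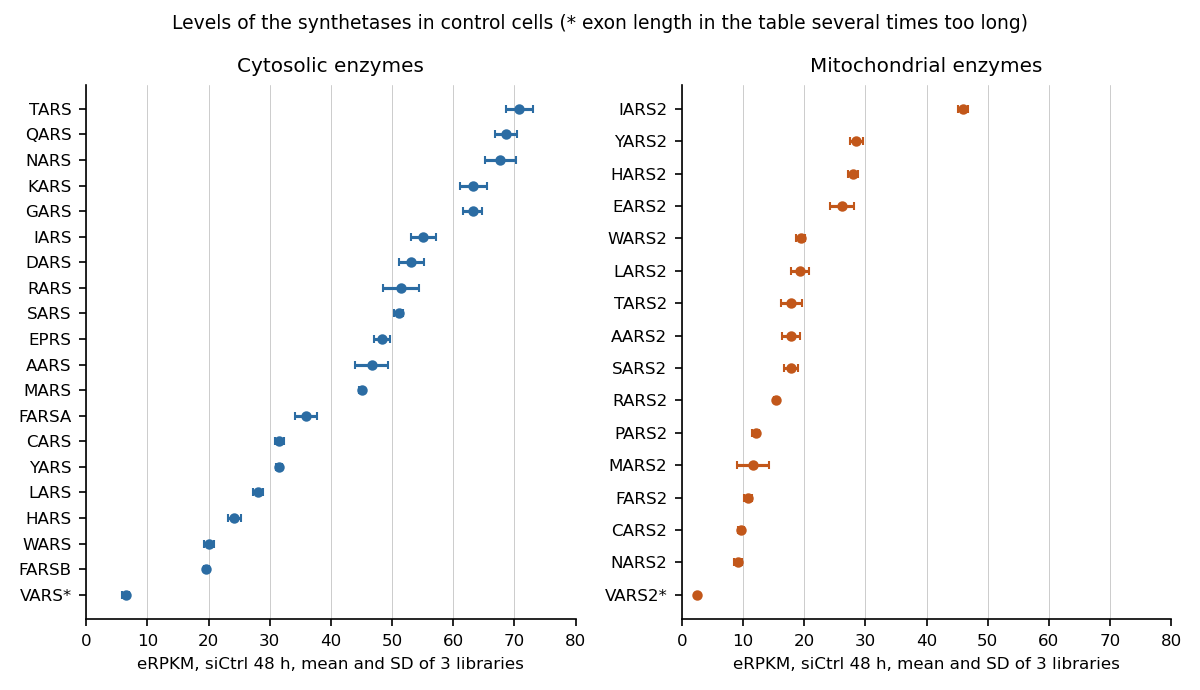
Mean eRPKM of each synthetase in siCtrl 48 h cells, on linear axes that start at 0, with bars for the SD of 3 libraries (cytosolic enzymes left, mitochondrial right). Cytosolic enzymes spread up to 70.8 eRPKM (TARS), and IARS2 at 46.0 eRPKM stands apart from the other mitochondrial ones. VARS and VARS2 are marked since their exon lengths are too long.

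The first question was what silencing of RAD21 did to the synthetases. At 24 h LARS2, the mitochondrial leucyl-tRNA synthetase, fell and NARS2, the mitochondrial asparaginyl-tRNA synthetase, rose, and both were called again at 48 h. At 48 h EARS2, the mitochondrial glutamyl-tRNA synthetase, and IARS, the cytosolic isoleucyl-tRNA synthetase, were also lower. A gene was called at an adjusted p below 0.05 (limma, Benjamini-Hochberg over all 14993 genes) and a log2 fold change past 0.5 in either direction. At 24 h this called 1 of 36 members higher and 1 lower, beside 5.83% and 2.6% of all genes tested. At 48 h it called 1 higher and 3 lower, beside 12.6% and 11.2% of all genes. The shares of members called were thus near or below those of all genes.

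LARS2 (chr3:45430053-45596218, plus strand, GRCh37) was at 22.3 and 22.7 eRPKM in siCtrl 24 h libraries and at 9.89 and 10.0 eRPKM in siRAD21 24 h libraries. At 48 h it was at 17.999, 18.8 and 20.8 eRPKM in siCtrl and at 7.68 and 6.86 eRPKM in siRAD21 libraries. No siRAD21 library came near a siCtrl library at either time. The log2 fold change was -1.14 ± 0.073 (SE, limma, adjusted p = 1.46e-07) at 24 h and -1.34 ± 0.067 (adjusted p = 1.48e-09) at 48 h, a 2.54-fold fall. NARS2 (chr11:78146666-78286239, minus strand) was at 16.5 and 14.9 eRPKM in siCtrl 24 h and at 26.8 and 28.7 eRPKM in siRAD21 24 h libraries. At 48 h the values were 8.43, 9.72 and 9.35 eRPKM in siCtrl and 25.8 and 25.6 eRPKM in siRAD21 libraries. Here too the groups did not overlap, and the control values were lower at 48 h than at 24 h. The log2 fold change was 0.80 ± 0.091 (adjusted p = 2.22e-05) at 24 h and 1.44 ± 0.083 (adjusted p = 5.88e-09) at 48 h, a 2.72-fold rise.

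EARS2 (chr16:23532075-23569052, minus strand) was at 24.2, 28.04 and 26.3 eRPKM in siCtrl 48 h and at 18.01 and 16.9 eRPKM in siRAD21 48 h libraries. The groups did not overlap, and the log2 fold change was -0.57 ± 0.067 (limma, adjusted p = 5.87e-06). At 24 h EARS2 had a log2 fold change of -0.22. IARS (chr9:94972489-95056136, minus strand) was at 55.1, 57.1 and 53.1 eRPKM in siCtrl 48 h and at 36.7 and 38.1 eRPKM in siRAD21 48 h libraries. Its log2 fold change was -0.55 ± 0.039 (adjusted p = 3.79e-08), and with quantile normalization it was -0.44 and no longer past the threshold. The smallest differences at 48 h were those of QARS (-0.03) and HARS (-0.06) among cytosolic and of CARS2 and HARS2 (both under 0.01 in size) among mitochondrial members. At 24 h they were those of QARS (0.01), SARS (0.02), TARS2 and IARS2 (both -0.03).

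**Figure D2:**
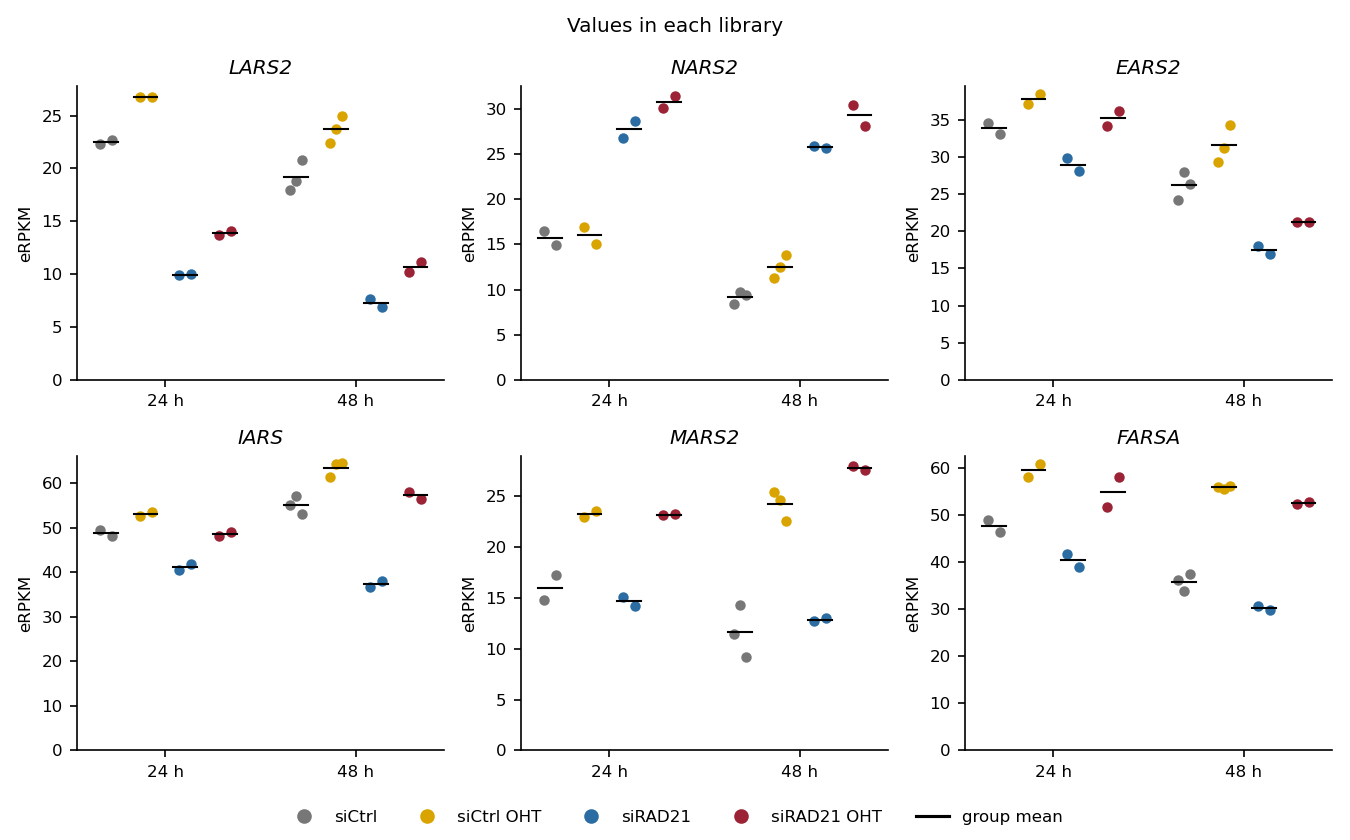
eRPKM of 6 synthetases in each of the 18 libraries (points) with the group mean (line), at 24 h and 48 h, on linear axes that start at 0. LARS2 is lower and NARS2 higher in every library with siRAD21 than in every library without it at the same time, MARS2 and FARSA are higher in every library with OHT than in its control without OHT, and EARS2 and IARS are lowest in siRAD21 48 h libraries.

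Below the fold threshold, most cytosolic enzymes were lower at 48 h. Of 20 cytosolic members 18 were below 0, 14 of them with an adjusted p below 0.05, and 0 were higher at that level. Over the alternatives 13 to 15 were lower and 0 to 3 higher at that level, 3 with quantile normalization. By adjusted p alone, 30.5% of all genes tested were lower and 27.2% higher. The cytosolic median was -0.24, that of the mitochondrial members -0.05 and that of all genes -0.01 on the log2 scale. With quantile normalization the compartments were closer, with a cytosolic median of -0.17 and a mitochondrial one of -0.07. The mitochondrial median was -0.10 without siRAD21 48 h replicate 2 and -0.03 without siCtrl 48 h replicate 3. Among mitochondrial members 6 were lower and 2 higher by adjusted p alone. The alanyl, glycyl and prolyl/glutamyl enzymes AARS, GARS and EPRS had log2 fold changes of -0.36, -0.40 and -0.39. WARS, the tryptophanyl-tRNA synthetase known as an interferon-induced gene, was higher by adjusted p alone at 24 h, with a log2 fold change of 0.41 (limma, adjusted p = 5.04e-05), and had 0.11 at 48 h. At 24 h the medians were -0.07 for both compartments. The difference of the siRAD21 effects at 48 h and 24 h was tested in the same model. NARS2 alone was called, with a difference of 0.64 ± 0.123 (adjusted p = 0.00223), beside 3.85% of all genes called higher and 6.86% lower. By adjusted p alone, 7 cytosolic members, AARS, CARS, EPRS, GARS, IARS, MARS and WARS, were more negative at 48 h, by 0.25 (MARS) to 0.38 (GARS) on the log2 scale. All 7 are among the 12 of 20 cytosolic members usually listed as ATF4 targets. Of the mitochondrial members EARS2 (-0.35) was more negative and NARS2 and PARS2 (0.27) were more positive at that level, and 13.5% of all genes were more negative and 8.12% more positive at that level.

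**Figure D3:**
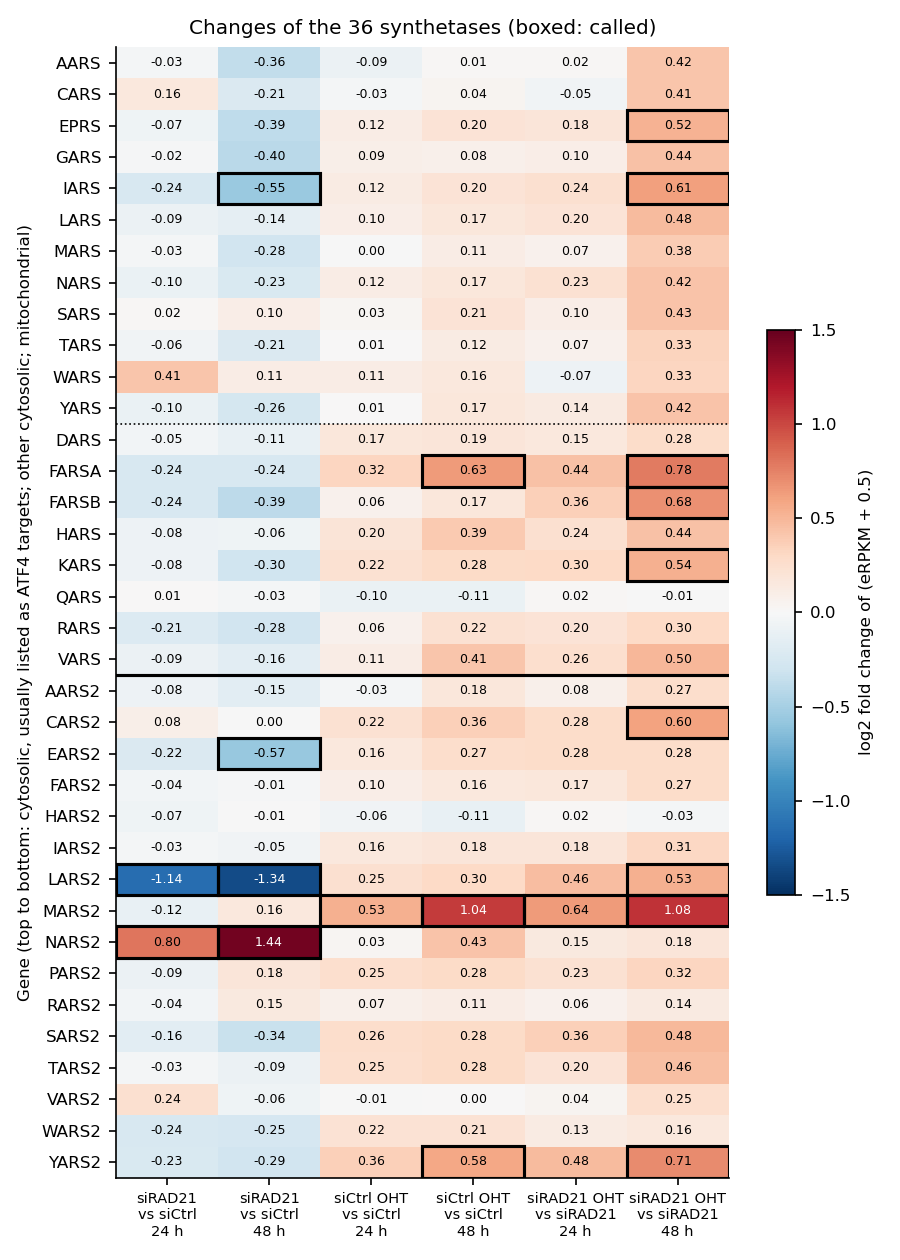
Log2 fold change of eRPKM + 0.5 for the 36 synthetases (rows) in 6 comparisons (columns), coloured from -1.5 to 1.5, with the value printed and a box around each called value. LARS2 and NARS2 stand out in the siRAD21 columns, and 9 boxes lie in the column of OHT in siRAD21 cells at 48 h.

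The second question was what OHT, which activates MycER, did in cells with RAD21. No cells without MycER were among the samples, so effects of OHT itself and of MycER cannot be told apart. OHT raised MARS2, the mitochondrial methionyl-tRNA synthetase, at 24 h and 48 h, and at 48 h also FARSA, the catalytic subunit of cytosolic phenylalanyl-tRNA synthetase, and YARS2, the mitochondrial tyrosyl-tRNA synthetase. At 24 h 1 member was called higher and 0 lower, beside 3.68% and 5.1% of all genes. At 48 h 3 were called higher and 0 lower, beside 7.78% and 10.1% of all genes, so the share of members called higher, 3 of 36, was near the background.

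MARS2 (chr2:198570093-198573119, plus strand) was at 14.8 and 17.2 eRPKM in siCtrl 24 h and at 22.9 and 23.5 eRPKM in siCtrl OHT 24 h libraries. At 48 h it was at 11.5, 14.3 and 9.16 eRPKM in siCtrl and at 25.4, 24.6 and 22.6 eRPKM in siCtrl OHT libraries. The control libraries spread widely at 48 h, but the lowest OHT library was still above the highest control. The log2 fold change was 0.53 ± 0.134 (limma, adjusted p = 0.0098) at 24 h and 1.04 ± 0.109 (adjusted p = 2.57e-06) at 48 h. The call at 24 h was lost without siCtrl 24 h replicate 1 (0.42) and without siCtrl OHT 24 h replicate 2. FARSA (chr19:13033293-13044851, minus strand) was at 36.2, 34.0 and 37.5 eRPKM in siCtrl 48 h and at 55.9, 55.7 and 56.3 eRPKM in siCtrl OHT 48 h libraries. The OHT libraries were close together and well above the controls, with a log2 fold change of 0.63 ± 0.047 (adjusted p = 9.95e-08). FARSB, which forms the other subunit of the same enzyme, had a log2 fold change of 0.17. YARS2 (chr12:32880424-32908831, minus strand) was at 27.3, 29.4 and 28.9 eRPKM in siCtrl 48 h and at 41.1, 44.4 and 43.1 eRPKM in siCtrl OHT 48 h libraries. Its log2 fold change was 0.58 ± 0.05 (adjusted p = 3.86e-07), and with quantile normalization it was 0.47 and not called.

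Small rises were widespread. At 48 h 34 of 36 members were above 0, and 16 of 20 cytosolic and 12 of 16 mitochondrial members were higher by adjusted p alone, as were 26.1% of all genes. HARS2 alone was lower at that level, with a log2 fold change of -0.11 (27.2% of all genes were lower). The medians were 0.17 for cytosolic, 0.28 for mitochondrial members and -0.01 for all genes. The cytosolic median was 0.10 with quantile normalization. VARS2 had the smallest mitochondrial difference (0.00) at 48 h, followed by HARS2, and AARS (0.01) and CARS (0.04) the smallest cytosolic ones. At 24 h the smallest differences were those of MARS, YARS and VARS2 (each under 0.01 in size) and NARS2 (0.03). For the difference in the response to OHT between 24 h and 48 h, 0 members were called, beside 0.714% of all genes called higher and 1.06% lower. The largest such difference was that of MARS2, at 0.52. MARS2 was called with the replicate block (limma, adjusted p = 0.0381), with voom and without siCtrl 48 h replicate 2.

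OHT was also compared with its absence in siRAD21 cells, to ask whether the synthetases respond to OHT when RAD21 is low. At 24 h MARS2 again was the one member called, at 15.1 and 14.2 eRPKM in siRAD21 and 23.1 and 23.3 eRPKM in siRAD21 OHT libraries. Its log2 fold change was 0.64 ± 0.134 (limma, adjusted p = 0.00203), beside 4.29% of all genes called higher and 7.62% lower. With median centring LARS2 and YARS2 were called as well, 3 members in all. At 48 h 9 members were called higher, 5 cytosolic and 4 mitochondrial, and 0 lower, beside 12.4% and 16.2% of all genes. These 9 are 25% of the 36 members.

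MARS2 was at 12.7 and 13.0 eRPKM in siRAD21 48 h and at 27.95 and 27.5 eRPKM in siRAD21 OHT 48 h libraries, with a log2 fold change of 1.08 ± 0.134 (adjusted p = 9.96e-06). FARSA was at 30.8 and 29.9 eRPKM without and at 52.3 and 52.8 eRPKM with OHT, with a log2 fold change of 0.78 ± 0.058 (adjusted p = 7.69e-08). YARS2 was at 21.8 and 24.9 eRPKM without and at 38.4 and 38.3 eRPKM with OHT, and its log2 fold change was 0.71 ± 0.061 (adjusted p = 3.29e-07). In all 3 the libraries with and without OHT stood far apart. FARSB (chr2:223431618-223520811, minus strand) was at 15.5 and 14.3 eRPKM without and at 24.4 and 23.9 eRPKM with OHT, with a log2 fold change of 0.68 ± 0.067 (adjusted p = 1.06e-06). Both subunits of phenylalanyl-tRNA synthetase were therefore called here. IARS, CARS2, KARS, LARS2 and EPRS had log2 fold changes of 0.61, 0.60, 0.54, 0.53 and 0.52. Of these, EPRS and KARS lost the call without siRAD21 48 h replicate 1, CARS2 and LARS2 without siRAD21 48 h replicate 2, and LARS2 also without siRAD21 OHT 48 h replicate 2 (0.47). EPRS, IARS and KARS were not called with quantile normalization, at 0.34, 0.43 and 0.35. VARS, at 0.50, lay just under the threshold. QARS (-0.01), HARS2 (-0.03), RARS2 (0.14) and DARS (0.28) had the smallest differences, and at 24 h QARS, AARS, HARS2 (each 0.02) and VARS2 (0.04) did.

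By adjusted p alone, 19 of 20 cytosolic members were higher with OHT in siRAD21 cells at 48 h, all but QARS, as were 13 of 16 mitochondrial ones (19 and 11 with the siRAD21 OHT 48 h pair averaged). Among all genes 30.5% were higher and 29.9% lower. The cytosolic median was 0.43, the mitochondrial one 0.29 and that of all genes -0.02 on the log2 scale. With quantile normalization the order of the compartments turned, with a cytosolic median of 0.27 and a mitochondrial one of 0.33. All 12 cytosolic members usually listed as ATF4 targets were within 0.33 to 0.61. The other cytosolic members spread more widely, from QARS, which was not higher, to FARSB (0.68) and FARSA (0.78). Duplicate reads were removed before counting, which caps the value of a gene. The members reached up to 42.1% of that cap (QARS), so folds of the highest genes are compressed.

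**Figure D4:**
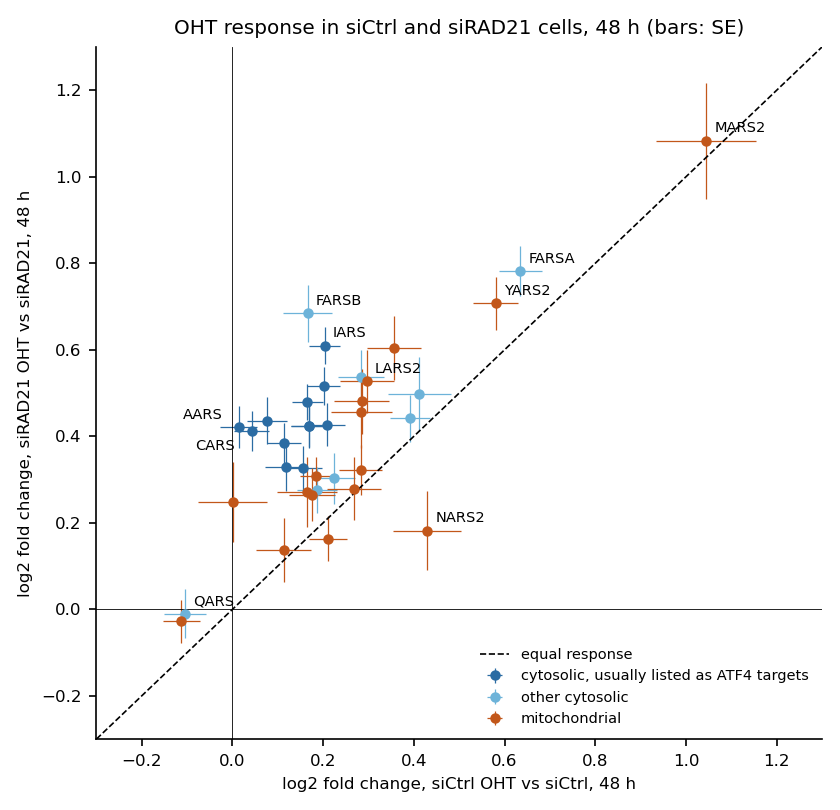
Log2 fold change with OHT at 48 h in siCtrl cells (x axis) and in siRAD21 cells (y axis) for each synthetase, with bars for the SE and a dashed line of equal response. FARSB, IARS, AARS and CARS lie above the line, while MARS2, FARSA and YARS2 lie close to it and NARS2 lies below it.

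Whether the response to OHT differed between siRAD21 and siCtrl cells was tested as an interaction. At 24 h limma called 0 of 36 members, as it called 0 of 14993 genes (0.0% higher and 0.0% lower), with 906 genes at an unadjusted p below 0.05, and voom on the recovered reads called 3 genes higher and 16 lower, 0 of them members. At 48 h FARSB alone was called, with an interaction of 0.52 ± 0.0863 (adjusted p = 0.00115), beside 3.33% of all genes called higher and 3.97% lower. That call was lost without siCtrl OHT 48 h replicate 1 and without siRAD21 48 h replicate 2, the lowest value being 0.46. By adjusted p alone, 12 of 20 cytosolic and 0 of 16 mitochondrial members had a larger response in siRAD21 cells, and 0 had a smaller one, beside 10.0% of all genes in the first direction and 7.25% in the second. The 12 were FARSB, AARS, IARS, CARS, GARS, LARS, EPRS, MARS, NARS, YARS, KARS and SARS, and 10 of them are usually listed as ATF4 targets. IARS had an interaction of 0.41 ± 0.055 (adjusted p = 0.000266) and AARS one of 0.41 ± 0.064 (adjusted p = 0.000775), while SARS had 0.22 ± 0.064 (adjusted p = 0.0304). The number of cytosolic members at that level was 9 when the siRAD21 OHT 48 h pair was averaged, 8 without replicate 1 of that pair, and 8 to 13 over all alternatives. Among mitochondrial members it was 0 to 2 over the alternatives. The medians of the interaction were 0.25 for cytosolic members (0.17 with quantile normalization), 0.10 for mitochondrial members and 0.02 for all genes. All 20 cytosolic members were above 0, from 0.05 (HARS) to 0.52 (FARSB). MARS2, with the largest response in either background, had an interaction of 0.04, and NARS2 one of -0.25. The siRAD21 48 h libraries also entered the siRAD21 effect at 48 h, its change from 24 h and the OHT response in siRAD21 cells. Low values in them push the siRAD21 effect down and the interaction up, so these results are not independent.

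The members that hold the ATF4 element can be set beside those that do not. With siRAD21 at 48 h, all 7 with the element were lower by adjusted p alone, with a median log2 fold change of -0.28 and a range of -0.55 to -0.21. Of the 23 without it 12 were at that level in either direction, with a median of -0.06, and 30.5% of all genes were lower. Of the 7 with the element 6 are cytosolic, against 10 of the 23 without it, so that this contrast mixes element and compartment. Of those 10, GARS, FARSB, EPRS, KARS, RARS and FARSA were lower at that level, and HARS, QARS, SARS and WARS were not. The part of either was not tested. For the interaction at 48 h the medians were 0.27 with the element and 0.12 without it. With OHT at 48 h they were 0.42 with and 0.43 without the element in siRAD21 cells. In siCtrl cells they were 0.12 with and 0.22 without it. The 4 members with an E-box had a median of 0.31 with OHT in siCtrl cells at 48 h and of 0.61 in siRAD21 cells, against 0.19 and 0.42 for the 26 without one. The E-box was in 3 of 14 mitochondrial and 1 of 16 cytosolic promoters, so that E-box and compartment are mixed as well. These groups are small and are given as a description.

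**Figure D5:**
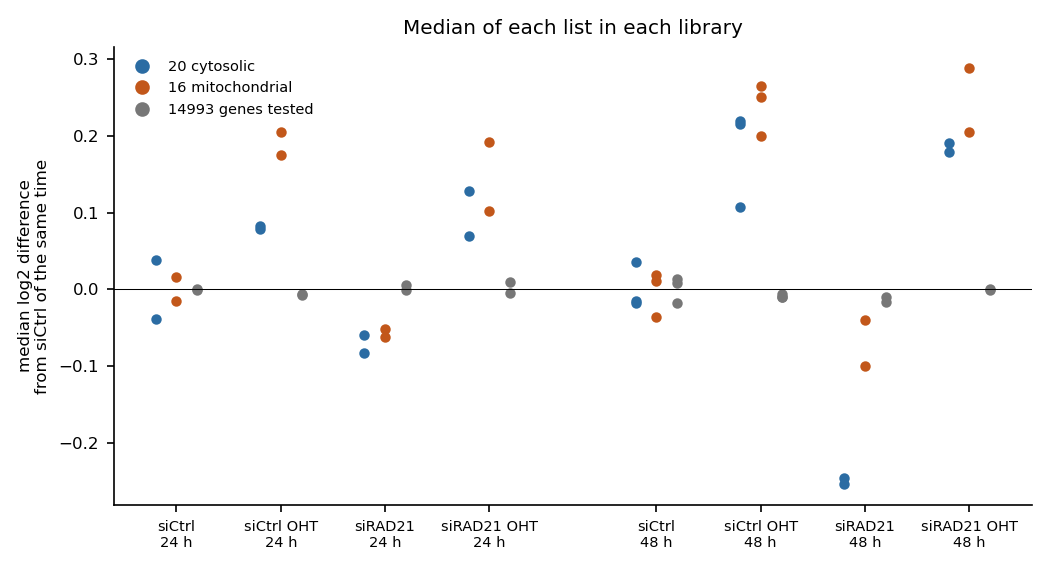
Median log2 difference from the mean of siCtrl libraries of the same time, for the 20 cytosolic members, the 16 mitochondrial members and all 14993 genes tested, 1 point per library. The cytosolic median lies at -0.25 in both siRAD21 48 h libraries and at 0.18 to 0.19 in siRAD21 OHT 48 h libraries, while the median of all genes stays within 0.02 of 0.

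Against siCtrl cells, the combined treatment left most cytosolic synthetases above the control level at 48 h. In siRAD21 OHT 24 h cells NARS2 (0.95) and MARS2 (0.53) were called higher and LARS2 (-0.68) lower on the log2 scale, 2 and 1 of 36 members, beside 6.62% and 6.51% of all genes. In siRAD21 OHT 48 h cells 6 members were called higher and 1 lower, beside 13.1% and 14.9% of all genes. The 6 were NARS2 (1.62), MARS2 (1.24), CARS2 (0.60), FARSA (0.54), SARS (0.52) and PARS2 (0.50). LARS2 was at 10.2 and 11.1 eRPKM in these libraries, below each siCtrl library, with a log2 fold change of -0.82 ± 0.067 (limma, adjusted p = 1.16e-07). NARS2 was at 30.4 and 28.1 eRPKM, above each siCtrl library, with 1.62 ± 0.083 (adjusted p = 1.19e-09). CARS2, the mitochondrial cysteinyl-tRNA synthetase, was at 15.2 and 14.4 eRPKM, against 9.52, 9.15 and 10.2 eRPKM in siCtrl. SARS, the cytosolic seryl-tRNA synthetase, was at 73.0 and 74.2 eRPKM, against 50.8, 51.9 and 50.5 eRPKM. PARS2, the mitochondrial prolyl-tRNA synthetase, lay at the threshold, and with the replicate block (0.47) and in 4 other settings it was not called. Of 20 cytosolic members 19 were above 0, and the medians were 0.18 for cytosolic (0.10 with quantile normalization) and 0.26 for mitochondrial members. FARSA and SARS were not called with quantile normalization, at 0.44 and 0.43. MARS2 at 24 h was not called without siCtrl 24 h replicate 1. EARS2, called lower with siRAD21 alone, was at -0.29 here, and IARS, also called lower alone, at 0.06. RARS (0.02), GARS (0.04), HARS2 (-0.03) and WARS2 (-0.09) had the smallest differences, and at 24 h RARS, IARS, AARS2 (each under 0.01 in size) and RARS2 (0.02) did. The comparisons of siRAD21, siCtrl OHT and siRAD21 OHT with siCtrl share their control libraries.

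The control cells were also compared between 24 h and 48 h, where most mitochondrial enzymes were lower at the later time. NARS2 alone was called, falling from 16.5 and 14.9 eRPKM in siCtrl 24 h to 8.43, 9.72 and 9.35 eRPKM in siCtrl 48 h libraries. Its log2 fold change was -0.74 ± 0.083 (limma, adjusted p = 1.25e-05), beside 5.53% of all genes called higher and 6.91% lower. Of 16 mitochondrial members 15 were below 0 and 12 were lower by adjusted p alone, beside 27.2% of all genes. That number was 7 with median centring, 7 without siCtrl 24 h replicate 1 and 8 without siCtrl 24 h replicate 2. Median centring also turned the split of all genes called, from 829 higher and 1036 lower to 1139 higher and 658 lower. The mitochondrial median was -0.22, against 0.00 for the cytosolic members and -0.04 for all genes. AARS2 and MARS2 (both -0.46) followed NARS2, and FARSA (-0.41) had the largest fall among cytosolic members. GARS (0.33) and DARS (0.31) had the largest positive values.

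The partners of the synthetases were taken from hand-written lists. EEF1E1, a scaffold protein of the multisynthetase complex, rose with OHT at 48 h, by 0.61 on the log2 scale in siCtrl (adjusted p = 1.84e-06) and by 0.77 in siRAD21 cells (adjusted p = 1.04e-06). The other scaffolds, AIMP1 and AIMP2, had 0.38 and 0.37 in siRAD21 cells and were not called. The 8 synthetases of the complex had a median of 0.43 there, with 3 called, EPRS, IARS and KARS. Of 48 tRNA modification genes tested, 17 were called higher with OHT in siCtrl and 22 in siRAD21 cells at 48 h, and 0 lower. The shares of all genes called higher were 7.78% and 12.4% in these comparisons, and 11.2% were called lower with siRAD21 at 48 h. Examples in siCtrl cells were WDR4 (0.88), a subunit of the m7G methyltransferase, CTU1 (0.87) and TRMU (0.83), which thiolate tRNA in the cytosol and in mitochondria. DUS2 (1.09), ADAT2 (0.95) and CTU2 (0.87) led in siRAD21 cells. With siRAD21 alone 0 of the 48 were called higher and 7 lower, with ADAT1 (-0.94), a tRNA adenosine deaminase, ALKBH8 (-0.81) and OSGEP (-0.79) first. Of 22 tRNA processing and export genes tested, of 23 listed, 4 were called lower with siRAD21 at 48 h, among them RPP25 (-1.07), ELAC2 (-0.84) and RPP30 (-0.64). With OHT, 4 of the 22 were called higher in siCtrl and 10 in siRAD21 cells, and ELAC1 (-0.57) was called lower in siRAD21 cells. Among those called higher were TSEN54 (0.60) and TRNT1 (0.60) in siCtrl cells, and TSEN54 (0.81), RPP40 (0.76) and ELAC2 (0.70) in siRAD21 cells. The 7 cytosolic elongation factors had 0 called in any of these 3 comparisons, with medians between -0.09 and 0.17. Of 8 mitochondrial elongation factors and aminoacyl-tRNA partners, 2 were called higher with OHT in siCtrl cells, MTFMT (0.67) and GFM1 (0.50), and 5 in siRAD21 cells, with MTFMT (0.86), the enzyme that formylates the initiator methionyl-tRNA charged by MARS2, TSFM (0.70) and GFM1 (0.60) first. GATC, a subunit of the GatCAB amidotransferase, was the 1 of the 8 called lower with siRAD21 (-0.65).

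ATF4 targets other than synthetases were followed as well. Of 25 listed and 24 tested, 8 were called lower and 1 higher with siRAD21 at 48 h, with a list median of -0.32. PHGDH (-1.48), the first enzyme of serine synthesis, CHAC1 (-1.37), a glutathione-degrading enzyme, and SLC7A11 (-1.06), the cystine transporter, were lowest, and SESN2 (0.96) was the one called higher. The shares of all genes were 11.2% lower and 12.6% higher. With OHT 3 were called higher in siCtrl cells, ATF3 (1.14), TRIB3 (1.10) and SESN2 (0.51), beside 7.78% of all genes. In siRAD21 cells 17 were called higher, with a list median of 0.63, and CHAC1 (2.08), PSAT1 (1.25) and ASNS (1.20), the asparagine synthetase that makes free asparagine, led. All genes called higher were 12.4% there. The interaction was called higher for 11 of the 24, beside 3.33% of all genes, CHAC1 (1.76), SLC7A11 (1.24) and PHGDH (0.99) having the largest values. DDIT3, also on this list, overlaps MARS in the annotation, and without strand their shared reads cannot be assigned. It had 0.35 with siRAD21 at 48 h, where MARS had -0.28.

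Genes that flank LARS2 and NARS2 were looked up because these members had the largest changes, so they were chosen after the values were seen. Around LARS2, the tested gene next to it at lower coordinates, TMEM158, was called higher with siRAD21 at 48 h (1.04), ZDHHC3 beyond it lower (-0.74), and LARS2-AS1 (0.29) and LIMD1 (-0.10) at higher coordinates were not called. LARS2-AS1 overlaps exons of LARS2 by 81 bases. TMEM158 starts at -162.3 kb and LIMD1 at 166.8 kb from the start of LARS2, in order of coordinates. Around NARS2, GAB2 (0.76) and TENM4 (1.67), whose starts lie at -156.8 kb and 865.8 kb from that of NARS2, were called higher. KCTD21-AS1 (-0.64) and FAM181B (-1.15) were called lower, and KCTD21 (-0.19) and USP35 (0.14) were not called. KCTD21-AS1 starts at -435.4 kb, while FAM181B starts as far as 4158.7 kb from the start of NARS2. The other genes looked up, TGM4, EXOSC7, SACM1L and SLC6A20 around LARS2 and MIR708 and MIR5579 near NARS2, were not called. Of all genes, 12.6% were called higher and 11.2% lower in this comparison.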

How the data were processed

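The 18 RNA-seq libraries (rRNA-depleted total RNA) were grouped by their labels. Per the labels and methods, the authors aligned reads to hg19 with TopHat2 2.0.8, removed PCR duplicates and counted reads with featureCounts 1.4.5. The authors deposited 1 table of RPKM computed over exons (eRPKM), with 23399 genes. Whole reads and depths were recovered from them for 22040 genes, within 0.02 reads for at least 308 microRNA genes per library. They cover 99.978 to 99.985% of each depth. Depth limits the counting error only.

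Tests used limma 3.58.1 (R 4.3.3) on log2(eRPKM + 0.5), which understates folds of low genes, with 8 group means, no block and a variance trend. The p-values measure the spread between libraries, which may be technical. The filter was a mean over libraries of 1 eRPKM or more, which kept 14993 genes. The fit was tested on simulated data. The members, the lists and the motifs were chosen with earlier results of these data known. The genes named are the called members with the largest changes (up to 8 in each direction), the 2 smallest differences of each compartment, the scaffolds, and up to 3 called genes per direction of each other list. A gene that this rule names among the other lists is not reported here. Positions of genes are from GENCODE on GRCh37. Of the members, 18 were found under a newer symbol. Alternatives were other pseudocounts, filters, normalizations, thresholds and fits, voom, undoing the duplicate removal and leaving out each library. Same-numbered siCtrl 48 h and siCtrl OHT 48 h libraries deviated together (correlations of 0.258, 0.130 and 0.157 over 3 pairs), so these numbers may pair them. Same-numbered siCtrl OHT 48 h and siRAD21 48 h libraries had 0.168 and 0.111, and libraries with different numbers were not compared. Python 3.11.15 was used for tables (pandas 2.3.3) and, with matplotlib 3.10.9, for figures.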

Additional observations from a re-analysis of the deposited data

Results flagged for a closer look

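The difference between groups was itself tested in 2 results. The response of FARSB to OHT at 48 h was larger in siRAD21 than in siCtrl cells by 0.52 on the log2 scale (limma, adjusted p = 0.00115). The effect of siRAD21 on NARS2 was larger at 48 h than at 24 h by 0.64 (adjusted p = 0.00223), and the control level of NARS2 fell between these times. Groups of 2 or 3 libraries are too small for a search for single outlying libraries.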

How the results depend on the processing

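Of the called members, none changed direction in any alternative. The count of members called with siRAD21 was 2 at 24 h and 4 at 48 h whichever library was left out. Without 1 library it was 0 to 1 with OHT in siCtrl cells at 24 h and 3 at 48 h, 1 to 2 and 8 to 10 with OHT in siRAD21 cells, 2 to 3 and 6 to 7 for siRAD21 OHT against siCtrl, 0 to 1 for the interaction at 48 h and for the change of the OHT effect with time, and 1 to 2 for siCtrl cells over time. With no fold change threshold the counts were 11, 22, 13, 29, 20, 32, 12 and 25 for siRAD21, OHT in siCtrl, OHT in siRAD21 and siRAD21 OHT against siCtrl, each at 24 h and 48 h, 12 for the interaction at 48 h, 10 and 1 for the changes of the siRAD21 and OHT effects with time, and 23 for siCtrl cells over time. With a threshold of 1 they were 1, 2, 0, 1, 0, 1, 0 and 2 in the same order, and 0 for the rest. With OHT in siRAD21 cells at 24 h, median centring gave 3 members, and quantile normalization and duplicate removal undone 2 each. The replicate block, and the block with crossed siCtrl 24 h numbers (chosen after seeing the data, since those correlated at -0.134 with siCtrl OHT 24 h), gave 1 member (MARS2) for the change of the OHT effect and 2 (AARS2 and NARS2) for siCtrl cells over time, and voom gave 1 for the former. PARS2 apart, the replicate block changed no other call of a member. Undoing duplicate removal was also chosen after seeing the data. In the filter of at least 5 eRPKM, VARS2 was not tested. The cause of these changes was not tested.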
